A study of Mus musculus with 10 samples.

Results

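The Cyp4a and Cyp4f genes of the mouse encode cytochromes P450 that hydroxylate fatty acids and eicosanoids at the end of the chain (omega-hydroxylation). The members were taken by name and comprised 6 Cyp4a genes and 4 Cyp4f genes, 10 of the 16647 genes listed in the count table. Liver RNA was sequenced from 5 control and 5 MI-883-treated mice. All 10 mice were males of the PXR-CAR-CYP3A4/3A7 model, which is humanized for PXR, CAR and CYP3A4/3A7, and both groups carried these alleles. They were 10 to 15 weeks old at the start of the high-fat diet (HFD), which was given for 8 weeks before and throughout 4 weeks of treatment. MI-883, described by the study as a ligand of both CAR and PXR, was given by oral gavage at 5 mg/kg on 3 days per week, and control mice received the vehicle of DMSO, PEG300 and corn oil on the same days.

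Omega-hydroxylation is a minor route of fatty acid breakdown in the endoplasmic reticulum of the hepatocyte, and its dicarboxylic acid products are shortened in peroxisomes. Cyp4a10 and Cyp4a14 are textbook targets of the fatty acid receptor PPARα in mouse liver. Cyp4a12a and Cyp4a12b are expressed mainly in male liver and kidney and convert arachidonic acid to 20-HETE, a vasoactive eicosanoid. Cyp4f enzymes mainly inactivate leukotrienes and other eicosanoids.

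The 10 genes lie in 2 clusters on GRCm38. In the Cyp4a cluster on chromosome 4, Cyp4a12a (Entrez gene 277753) spans chr4:115299046-115332815 and Cyp4a12b (Entrez gene 13118) spans chr4:115411624-115439034. They are followed by Cyp4a14 (Entrez gene 13119, chr4:115486200-115496158, minus strand), Cyp4a10 (Entrez gene 13117, chr4:115518287-115533649), Cyp4a31 (Entrez gene 666168, chr4:115563627-115579015) and Cyp4a32 (Entrez gene 100040843, chr4:115600927-115622507). The Cyp4f cluster on chromosome 17 holds Cyp4f17 (Entrez gene 208285, chr17:32506192-32530158), Cyp4f15 (Entrez gene 106648, chr17:32685631-32703352), Cyp4f14 (Entrez gene 64385, chr17:32903357-32917376, minus strand) and Cyp4f13 (Entrez gene 170716, chr17:32924688-32947415, minus strand).

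In the coding sequence (GENCODE M21 transcripts on GRCm38, 5′ to 3′), the stretch that encodes the oxygen-binding I helix shows how closely the members are related. Capitals mark the codon of the residue at which many Cyp4 enzymes bind their heme covalently through a glutamate. In 8 members this codon is GAG, for glutamate, whereas Cyp4f13 and Cyp4f17 have GGA, for glycine.
Cyp4a10: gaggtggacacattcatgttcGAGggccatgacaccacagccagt
Cyp4a14: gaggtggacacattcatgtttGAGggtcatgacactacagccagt
Cyp4a12a: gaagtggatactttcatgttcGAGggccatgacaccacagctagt
Cyp4a12b: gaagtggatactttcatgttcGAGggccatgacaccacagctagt
Cyp4a31: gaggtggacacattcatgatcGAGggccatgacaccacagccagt
Cyp4a32: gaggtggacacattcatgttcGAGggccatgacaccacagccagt
Cyp4f13: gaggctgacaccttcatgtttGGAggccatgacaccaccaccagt
Cyp4f14: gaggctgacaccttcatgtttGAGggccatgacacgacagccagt
Cyp4f15: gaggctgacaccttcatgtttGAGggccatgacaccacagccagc
Cyp4f17: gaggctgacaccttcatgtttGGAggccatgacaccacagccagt
Cyp4a10 and Cyp4a32 share this stretch letter for letter, and so do Cyp4a12a and Cyp4a12b.

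How far reads can be told apart limits the values of the near-identical members. Over their coding sequences, Cyp4a12a and Cyp4a12b differed at 23 of 1527 aligned bases (98.5% identity). Cyp4a10 was 97.2% identical to Cyp4a32 and 96.6% to Cyp4a31, and Cyp4a14 was 76.8% identical to Cyp4a10. Of all stretches of 100 bases in the annotated transcripts, 35.8% of those of Cyp4a12a also occurred in Cyp4a12b, and 36.2% the other way round. The share found in any other gene was 12.2% for Cyp4a10, 18.2% for Cyp4a32 and 7.33% for Cyp4a31. It was 0% for Cyp4a14, Cyp4f13, Cyp4f14 and Cyp4f15, and 0.0646% for Cyp4f17. The 90-base coding windows in which the near-identical members differ most are given next, with capitals at every base that differs, since reads over such windows separate the genes. Coding positions are counted from 1 at the start codon. Between positions 661 and 750, Cyp4a12a and Cyp4a12b differ at 7 bases.
Cyp4a12a: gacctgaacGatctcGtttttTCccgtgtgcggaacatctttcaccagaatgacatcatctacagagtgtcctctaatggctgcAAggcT
Cyp4a12b: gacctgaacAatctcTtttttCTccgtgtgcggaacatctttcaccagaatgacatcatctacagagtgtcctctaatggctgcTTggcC
Between positions 190 and 279, the sequences of Cyp4a10, Cyp4a31 and Cyp4a32 differ at 13 bases.
Cyp4a10: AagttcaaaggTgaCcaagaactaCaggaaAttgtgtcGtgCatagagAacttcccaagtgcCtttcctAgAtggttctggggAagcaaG
Cyp4a31: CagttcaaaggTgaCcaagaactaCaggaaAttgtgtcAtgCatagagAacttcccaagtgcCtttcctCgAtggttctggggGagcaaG
Cyp4a32: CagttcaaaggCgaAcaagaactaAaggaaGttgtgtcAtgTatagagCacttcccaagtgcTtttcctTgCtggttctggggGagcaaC

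Counts assigned to genes totaled 24014461 to 36221514 per control liver and 23513665 to 28349963 per MI-883-treated liver. All 10 members passed the filter of 60 counts over the 10 livers, as did 13219 genes in all. The lowest count of a member in any liver was 135, for Cyp4a31. Values are CPM, counts scaled to a common library size by TMM, as mean ± SD of 5 livers. The edgeR quasi-likelihood test was used, and its P values were adjusted by the Benjamini-Hochberg method over all tested genes. Cyp2b10, the classical CAR target, rose from 36.5 ± 9.10 to 1019 ± 299 CPM (log2 fold change 4.80, SE 0.25; edgeR adjusted P = 3.6e-07). Hepatocyte markers dominated in all livers, with Alb at 1187433 counts or more in each.

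Both Cyp4a12 genes were higher in MI-883-treated livers, while Cyp4a14 and Cyp4a10, their neighbors in the cluster, had lower means without passing the test. The edgeR call of Cyp4a12a was close to the threshold. With a liver left out, it held in 1 of 10 fits, and that of Cyp4a12b in 10 of 10. Of the 10 members, 2 passed the edgeR test as higher (Cyp4a12a and Cyp4a12b) and 0 as lower, against 0.764% and 0.265% of all tested genes. The same counts, 2 and 0, were given by DESeq2, which called 2.2% of all genes higher and 1.3% lower. Livers of the 2 groups did not overlap for 2 members, both higher in MI-883, against 2.05% of all genes higher and 1.93% lower. At an unadjusted P under 0.05, edgeR counted 2 members as higher and 3 as lower, against 8.09% and 7.49% of all tested genes. The log2 fold changes were positive for 5 members and negative for 5, with a median of 0.05 beside 0.0045 over all tested genes.

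**Figure D1:**
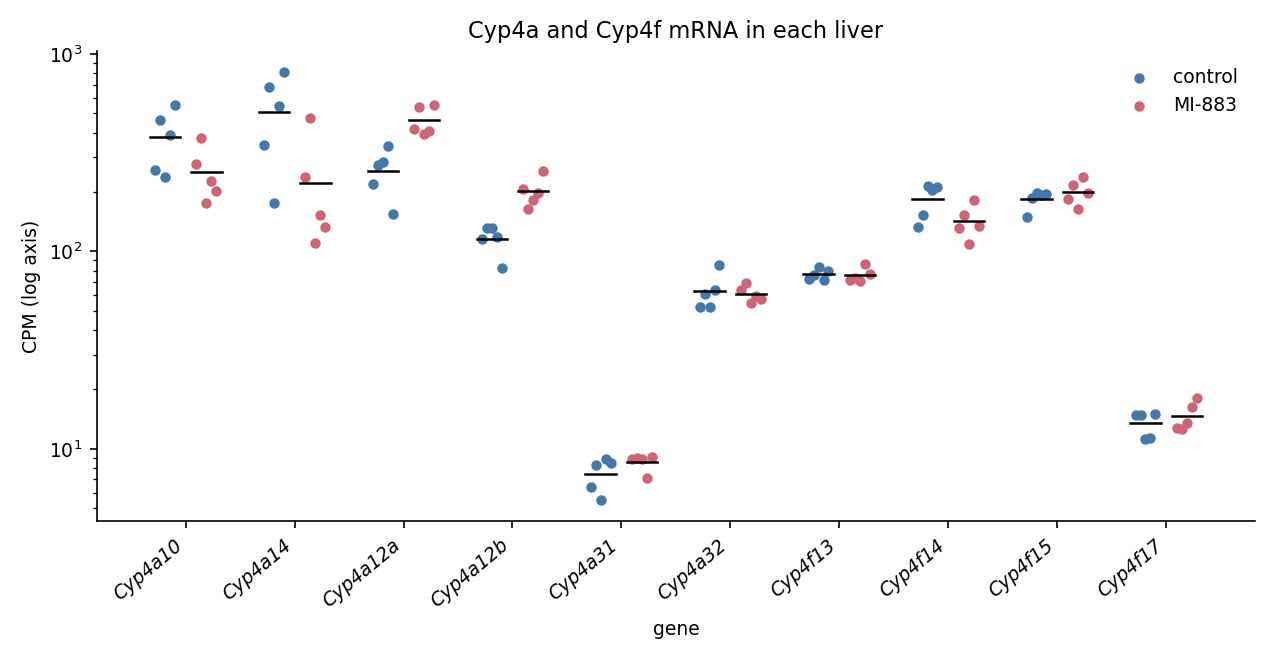
CPM on a log axis of the 10 members in each of 5 control (blue) and 5 MI-883-treated (red) livers, where points are livers and black bars are group means. The red points lie above all blue points for Cyp4a12a and Cyp4a12b, and no red point of Cyp4a14 exceeds the control median of 544 CPM.

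Cyp4a12a was at 220, 273, 285, 342 and 155 CPM in control livers 1 to 5 and at 416, 538, 391, 410 and 552 CPM in MI-883 livers 1 to 5. The lowest treated liver was thus above the highest control liver. The mean rose from 255 ± 70.7 to 461 ± 77.0 CPM, a 1.81-fold change (95% interval 1.38 to 2.37; log2 fold change 0.85, SE 0.18). The edgeR adjusted P was 0.0428, that of DESeq2 was 0.000277, and P was 0.00794 by an exact permutation test (two-sided), the smallest value that 5 livers against 5 allow. This call was close to the threshold. When each liver was left out in turn, Cyp4a12a remained under 0.05 in edgeR in 1 of 10 fits, that without control liver 4, with log2 fold changes of 0.72 to 0.98 and adjusted P values of 0.0341 to 0.118.

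Cyp4a12b was at 116, 131, 131, 118 and 82.6 CPM in control livers 1 to 5. In MI-883 livers 1 to 5 it was at 208, 165, 182, 197 and 254 CPM. Control liver 5 was the lowest of its group for both Cyp4a12 genes, and MI-883 liver 5 the highest. The mean rose from 116 ± 19.8 to 201 ± 33.9 CPM, a 1.74-fold change (95% interval 1.42 to 2.13; log2 fold change 0.80, SE 0.14; edgeR adjusted P = 0.0141, DESeq2 adjusted P = 3.3e-06). In contrast to Cyp4a12a, Cyp4a12b passed the edgeR test in 10 of 10 fits with a liver left out.

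Since reads over shared stretches may be assigned to either gene or dropped, the counts of the pair were also summed before testing. The sum ranged from 238 to 460 CPM in control livers and from 573 to 806 CPM in treated livers. Its log2 fold change was 0.84 (SE 0.16; edgeR adjusted P = 0.0244), and it passed in 8 of 10 fits with a liver left out, the exceptions being the fits without MI-883 liver 2 (adjusted P = 0.0634) and without MI-883 liver 5 (adjusted P = 0.0731). The ratio of Cyp4a12a to Cyp4a12b lay between 1.88 and 2.90 in control and between 2.00 and 3.26 in treated livers, with the highest value in MI-883 liver 2.

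As kidney also expresses Cyp4a12 genes, kidney markers were counted in each library. The 6 listed markers summed to 8 to 52 counts in control livers, and to 611 and 286 counts in MI-883 livers 2 and 3, while the other treated livers had 21, 67 and 48. Most of these counts belonged to Kap, the kidney androgen-regulated protein, with 471 and 194 counts in livers 2 and 3. Slc34a1 had 109 and 52 counts in these livers, against 0 to 10 in every other liver. Umod, the defining marker of the loop of Henle, had 9 and 23 counts there, against 0 to 4 elsewhere. These 2 livers had the lowest Cyp4a12b values of the treated group, 165 and 182 CPM, while Cyp4a12a was second highest in liver 2 and lowest in liver 3. Without both livers, the log2 fold change of Cyp4a12b was 0.92 (edgeR adjusted P = 0.0196), whereas that of Cyp4a12a was 0.85 with an adjusted P of 0.183 and that of the sum was 0.87 with an adjusted P of 0.119.

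Cyp4a14 is commonly used as a marker of PPARα activity in mouse liver. It was at 346, 682, 176, 544 and 809 CPM in control livers 1 to 5, and at 238, 475, 111, 153 and 134 CPM in MI-883 livers 1 to 5. The groups overlapped, because control liver 3 was low and MI-883 liver 2 was high, but 0 of 5 treated livers exceeded the control median. The mean was 511 ± 254 CPM in control and 222 ± 149 CPM in treated livers, with a log2 fold change of -1.20 (SE 0.43, 95% interval -2.14 to -0.27). This was not past the threshold (edgeR adjusted P = 0.208, DESeq2 adjusted P = 0.228, exact permutation P = 0.0635). Only 0.106% of tested genes had a more negative log2 fold change, but of the 1484 genes with a mean of at least 100 CPM, 3 had a larger standard error than Cyp4a14. Leaving out single livers gave log2 fold changes of -1.69 to -0.98 and passed the threshold in 0 of 10 edgeR fits. The value of -1.69 was that without MI-883 liver 2, which had the most kidney marker counts (edgeR adjusted P = 0.0766). Without MI-883 livers 2 and 3 it was -1.55 (edgeR adjusted P = 0.227). A part of kidney tissue in these values was not tested.

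Cyp4a10, a further omega-hydroxylase under PPARα, was at 259, 464, 238, 389 and 552 CPM in control livers 1 to 5. Treated livers 1 to 5 had 277, 375, 176, 228 and 201 CPM. The groups overlapped, and again 0 of 5 treated livers exceeded the control median. The mean was 380 ± 134 CPM in control and 251 ± 78.4 CPM in treated livers (log2 fold change -0.60, SE 0.25; edgeR adjusted P = 0.267, DESeq2 adjusted P = 0.315, exact permutation P = 0.0952). Without MI-883 livers 2 and 3, the log2 fold change of Cyp4a10 was -0.69 (edgeR adjusted P = 0.392). Summed with its near-identical relatives Cyp4a31 and Cyp4a32, the log2 fold change was -0.49 (SE 0.22; edgeR adjusted P = 0.306).

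Cyp4a10 and Cyp4a14 varied together from liver to liver (n = 10, log2 CPM, Pearson r = 0.972, Spearman rho = 0.988). The permutation P of both coefficients was 2e-05, the smallest that 100000 resamples can give, and 8e-05 after adjustment over 4 pairs. Without control livers 2 and 5, which were farthest from the median, r was 0.956. With the group means removed, so that the difference between groups no longer contributed, r was 0.962 (exact permutation within groups, adjusted P = 0.000139). Cyp4a14 shares no 100-base stretch with Cyp4a10. The ratio of Cyp4a14 to Cyp4a10 was 1.28 ± 0.309 in control and 0.818 ± 0.267 in treated livers, with overlap. For Cyp4a12a with Cyp4a12b, the groups lay apart on both axes, so no pooled coefficient is given. With the group means removed, r was 0.638 and did not pass the test (exact permutation within groups, adjusted P = 0.0817).

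**Figure D2:**
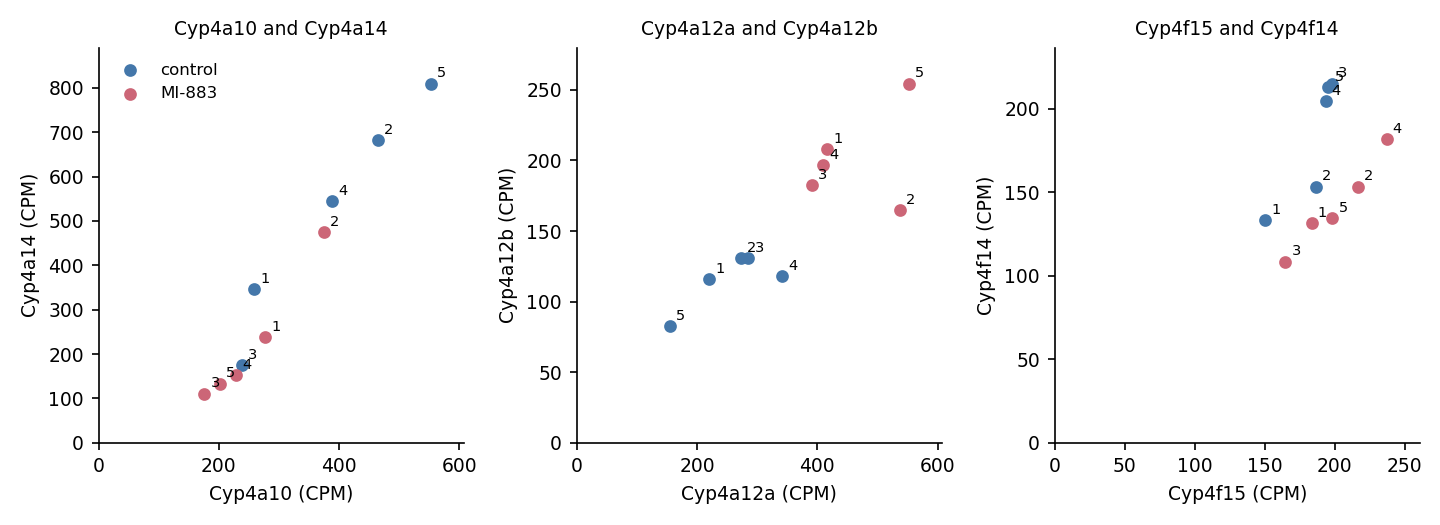
CPM of Cyp4a14 against Cyp4a10, of Cyp4a12b against Cyp4a12a and of Cyp4f14 against Cyp4f15, where each point is a liver numbered by replicate, blue for control and red for MI-883. The first pair falls along a line through both groups (r = 0.972), the second splits into separate groups, and in the third the treated livers lie below the control livers at like Cyp4f15 levels.

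Cyp4a31 and Cyp4a32 are little-studied relatives of Cyp4a10. Cyp4a31 was at 5.52 to 8.83 CPM in control and 7.14 to 9.04 CPM in treated livers (log2 fold change 0.20, SE 0.14, 95% interval -0.09 to 0.49; edgeR adjusted P = 0.501). Cyp4a32 was at 52.6 to 84.9 CPM in control and 54.6 to 69.5 CPM in treated livers, and its log2 fold change of -0.05 (SE 0.12, 95% interval -0.31 to 0.22; edgeR adjusted P = 0.888) turned to 0.09 without control liver 5. Neither gene differed beyond the spread between livers.

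Among the Cyp4f genes, Cyp4f14, a leukotriene B4 hydroxylase, was at 133, 153, 215, 205 and 213 CPM in control livers 1 to 5. Treated livers 1 to 5 had 131, 153, 109, 182 and 134 CPM. The groups overlapped, and 0 of 5 treated livers exceeded the control median. The mean was 184 ± 37.9 CPM in control and 142 ± 27.4 CPM in treated livers, with a log2 fold change of -0.37 (SE 0.16, 95% interval -0.71 to -0.04; edgeR adjusted P = 0.273, DESeq2 adjusted P = 0.196, exact permutation P = 0.0794).

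Cyp4f15, which lies in the same cluster, was at 150 to 198 CPM in control and 165 to 237 CPM in treated livers (log2 fold change 0.12, SE 0.11, 95% interval -0.11 to 0.34; edgeR adjusted P = 0.626). Cyp4f13 was at 72.0 to 83.7 CPM in control and 70.8 to 86.1 CPM in treated livers. Its log2 fold change of -0.02 (SE 0.07; edgeR adjusted P = 0.924) had the narrowest interval of the 10 members, -0.17 to 0.14, and took the opposite sign under total count scaling (0.02). Cyp4f17 was at 11.2 to 15.1 CPM in control and 12.7 to 18.2 CPM in treated livers (log2 fold change 0.12, SE 0.13, 95% interval -0.15 to 0.40; edgeR adjusted P = 0.672). Cyp4f13 and Cyp4f17 are the members with the glycine codon shown above, and neither passed the test.

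Although neither gene passed the test alone, the ratio of Cyp4f14 to Cyp4f15 did not overlap between the groups. It was 0.887, 0.822, 1.09, 1.06 and 1.09 in control livers 1 to 5, and 0.716, 0.708, 0.658, 0.766 and 0.677 in MI-883 livers 1 to 5. Every treated liver was below the lowest control liver. This ratio was chosen because its values separated the groups, and it is given as a description without a test. Across the 10 livers, the correlation of Cyp4f14 with Cyp4f15 was r = 0.537 (Spearman rho = 0.527; permutation P = 0.109 and 0.121, adjusted 0.145 and 0.154), and 0.433 without control liver 3 and MI-883 liver 3. Within groups it was stronger, with r = 0.919 after removal of the group means (exact permutation within groups, adjusted P = 0.000139, from the smallest P that reordering the livers can give).

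**Figure D3:**
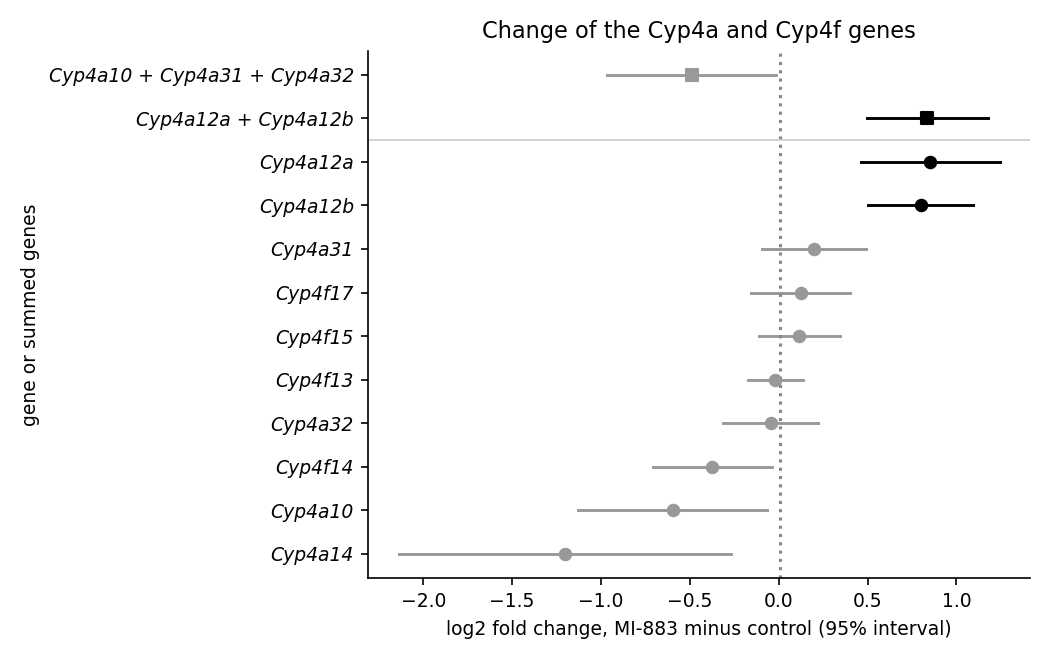
Log2 fold change, MI-883 minus control, of the 10 members and of 2 sums of near-identical members (squares), with 95% intervals and the median of all tested genes as a dotted line. Black marks edgeR adjusted P under 0.05, reached by Cyp4a12a, Cyp4a12b and their sum, and the widest interval is that of Cyp4a14, from -2.14 to -0.27.

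To compare levels between genes, CPM was divided by the length of the merged exons in kb. In control livers, the order of levels per kb was Cyp4a14 (196 ± 97.8), Cyp4a10 (180 ± 63.5), Cyp4a12a (105 ± 29.2), Cyp4f15 (80.9 ± 8.68), Cyp4f14 (76.0 ± 15.7), Cyp4a12b (48.3 ± 8.26), Cyp4a32 (41.0 ± 8.64), Cyp4f13 (17.3 ± 1.13), Cyp4f17 (4.21 ± 0.626) and Cyp4a31 (2.98 ± 0.580). Within this order, Cyp4a14 and Cyp4a10, Cyp4a12a and Cyp4f15, Cyp4f15 and Cyp4f14, and Cyp4a12b and Cyp4a32 were neighbors whose means were closer than the larger of their SDs. The level of Cyp4f13 depends on the length used, since its longest transcript alone would give 43.8 CPM per kb. In treated livers Cyp4a12a had the highest level, 190 ± 31.8 CPM per kb, followed by Cyp4a10 (119 ± 37.2), Cyp4f15 (87.7 ± 12.3), Cyp4a14 (85.3 ± 57.4) and Cyp4a12b (84.0 ± 14.1).

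The summed level of the Cyp4a members per kb was 575 ± 155 in control and 522 ± 112 in treated livers, and that of the Cyp4f members was 178 ± 24.0 and 168 ± 25.0, so neither sum differed beyond its SD. The makeup of the Cyp4a sum shifted. Cyp4a12a accounted for 8.78 to 30.3% of it in control livers and 31.7 to 43.7% in treated livers, without overlap. Cyp4a10 accounted for 28.4 to 35.9% in control and 18.3 to 25.4% in treated livers, also without overlap. Cyp4a14 accounted for 17.3 to 42.6% in control and 9.85 to 26.1% in treated livers, with overlap. Shares of a sum depend on each other, and none was tested. Higher Cyp4a12 levels by themselves lower the other shares, and Cyp4a10 in CPM overlapped between the groups (edgeR adjusted P = 0.267). The makeup of the Cyp4f sum shifted as well. Cyp4f14 accounted for 38.0 to 44.9% in control and 32.7 to 36.9% in treated livers. Cyp4f15 accounted for 43.6 to 49.0% in control and 51.1 to 53.1% in treated livers, and neither share overlapped between the groups. As Cyp4f14 and Cyp4f15 make up most of this sum, these shares largely restate their ratio, which was chosen because it separated the groups. The ratio of both Cyp4a12 genes to Cyp4a10 and Cyp4a14 together, per kb, was 0.172 to 0.956 in control and 0.807 to 2.28 in treated livers, where MI-883 liver 2 overlapped with control liver 3. Since whole liver RNA was measured, fewer cells of a type and less RNA per cell cannot be told apart in these shares.

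Along the Cyp4a cluster, the genes that rose and those with lower means were direct neighbors, with Cyp4a12b followed by Cyp4a14. At the ends of this cluster, Cyp4x1 and Cyp4a29 had at most 2 and 1 counts in any liver, and Cyp4b1, a hydroxylase mainly of lung, was at 14.6 and 17.2 CPM in control and treated livers (log2 fold change 0.23, SE 0.16; edgeR adjusted P = 0.522). Of the other Cyp4 genes, 5 were tested, 4 of them with positive log2 fold changes, and 0 passed the edgeR or DESeq2 test in either direction (1 higher in edgeR at an unadjusted P under 0.05). The most abundant was Cyp4v3, a fatty acid hydroxylase outside both clusters, at 413 ± 37.3 CPM in control and 409 ± 30.5 CPM in treated livers (log2 fold change -0.01). Cyp4f16 (2.61 and 2.87 CPM), Cyp4f18 (1.28 and 1.55 CPM) and Cyp4f39 (0.212 and 0.455 CPM, with 2 to 14 counts per liver) were low in both groups, and Cyp4f37 had at most 1 count.

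**Figure D4:**
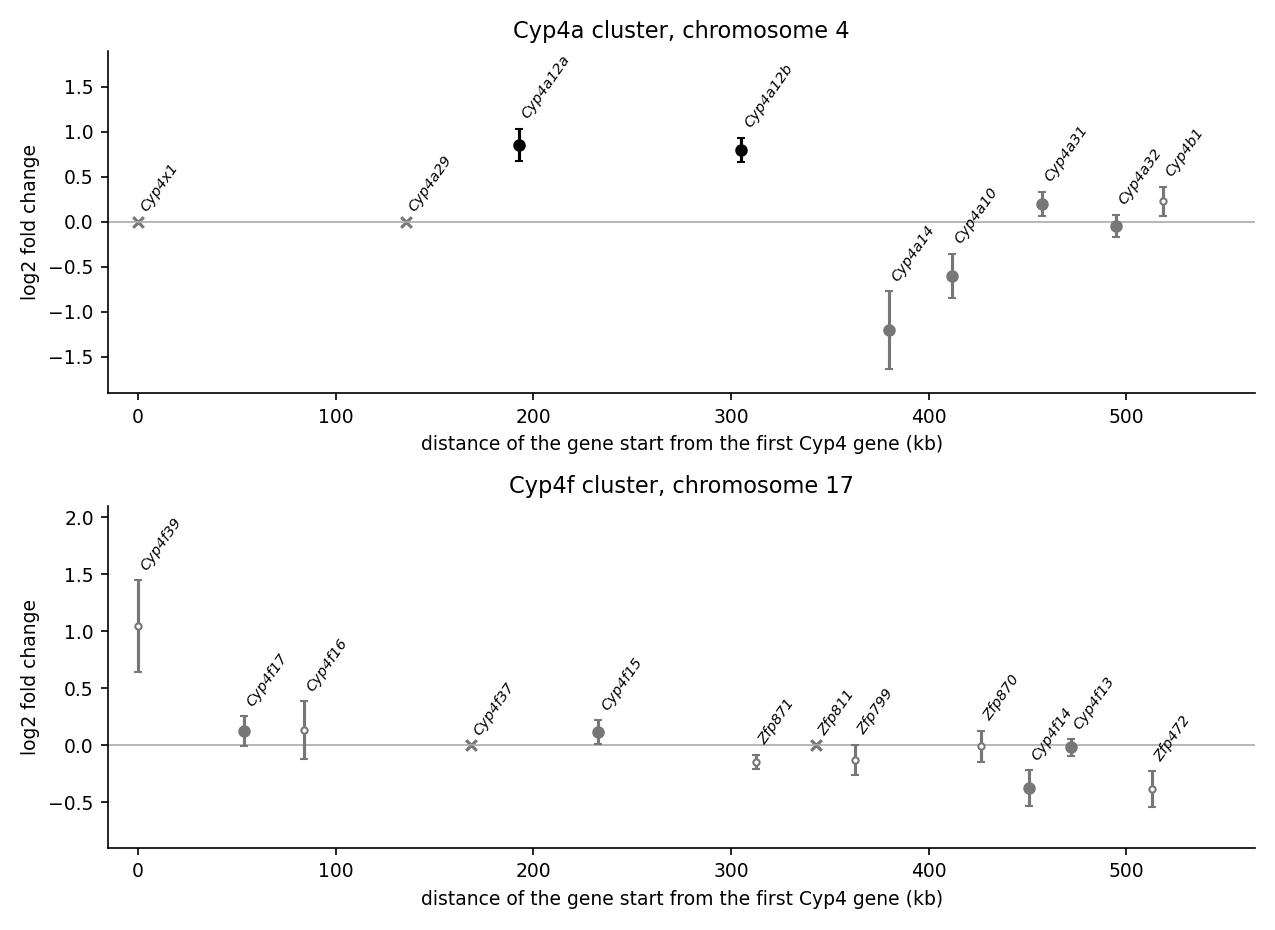
Log2 fold change, MI-883 minus control, with its SE against the distance in kb of each gene's start from the first Cyp4 gene of the Cyp4a cluster (top) and of the Cyp4f cluster (bottom). Filled points are members, open points other genes, black points those with edgeR adjusted P under 0.05, and crosses at 0 genes with too few counts to be tested. Cyp4a12a (0.85) and Cyp4a12b (0.80) stand beside Cyp4a14 (-1.20) and Cyp4a10 (-0.60).

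Genes that act with the Cyp4 enzymes or share their regulators were then examined as lists, beside lists of genes that mark cell types and zones of the lobule. All 20 lists together held 249 tested genes. Of the PPARα targets other than Cyp4a, 1 of 37 rose and 0 fell by edgeR, with a median log2 fold change of -0.03 beside 0.0045 over all tested genes. The gene that rose was Pdk4, an inhibitor of pyruvate dehydrogenase, from 13.7 ± 4.72 to 33.3 ± 6.76 CPM (log2 fold change 1.27, SE 0.23; edgeR adjusted P = 0.0198). DESeq2 called 1 gene of this list higher and 1 lower. The latter was Fabp1, the liver fatty acid binding protein, at 4766 ± 399.6 CPM in control and 3904 ± 312 CPM in treated livers without overlap (log2 fold change -0.29; DESeq2 adjusted P = 0.0177, edgeR adjusted P = 0.176). The correlation of Cyp4a14 with the mean of these 37 targets over 10 livers was r = 0.426 (Spearman rho = 0.491; permutation P = 0.221 and 0.154). It was 0.605 without control livers 1 and 3, and 0.740 after removal of the group means (exact permutation within groups, adjusted P = 0.0231).

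In the list of omega-oxidation and peroxisomal chain shortening, which handles the products of Cyp4a enzymes, 0 of 24 genes passed the edgeR test in either direction (11 positive, 13 negative). Aldh1a1, a cytosolic aldehyde dehydrogenase, came closest to the threshold, at 2586 ± 247 and 3808 ± 648 CPM (log2 fold change 0.56; edgeR adjusted P = 0.0514, DESeq2 adjusted P = 0.00033). Scp2, the sterol carrier protein with a peroxisomal thiolase form, was at 5131 ± 176 CPM in control and 4524 ± 136 CPM in treated livers. The groups did not overlap for Scp2 (log2 fold change -0.18; edgeR adjusted P = 0.291, DESeq2 adjusted P = 0.0049). DESeq2 counted 1 gene of this list as higher and 1 as lower, and at an unadjusted P under 0.05 edgeR counted 2 as higher and 4 as lower.

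Of 20 receptors and cofactors, 0 passed the test by edgeR or DESeq2, with 6 positive and 14 negative log2 fold changes and, in edgeR at an unadjusted P under 0.05, 0 higher and 2 lower. The most abundant were Hnf4a, the hepatocyte nuclear receptor, at 430 and 429 CPM, Rxra, the partner of PPARα, at 411 and 405 CPM, and Ppara itself, at 372 ± 34.5 and 352 ± 58.8 CPM (log2 fold change -0.08; edgeR adjusted P = 0.772). Of the 6 listed genes that supply electrons to P450 enzymes or make or break down heme, 0 passed the edgeR test, and 1 was higher at an unadjusted P under 0.05. Por, the P450 reductase, was at 851 ± 231 and 1147 ± 356 CPM (log2 fold change 0.43; edgeR adjusted P = 0.365), Alas1, the rate-limiting enzyme of heme synthesis, was at 1271 ± 274 and 1321 ± 230 CPM (log2 fold change 0.06; edgeR adjusted P = 0.899), and Cyb5a, cytochrome b5, was at 1413 ± 130 and 1842 ± 295 CPM (log2 fold change 0.38; edgeR adjusted P = 0.149, DESeq2 adjusted P = 0.0317).

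Arachidonic acid and its products are substrates of Cyp4a12 and Cyp4f enzymes. Of 22 other enzymes of this pathway, 2 rose and 0 fell by edgeR, with 11 positive and 11 negative log2 fold changes. DESeq2 called 3 of them higher and 0 lower, and at an unadjusted P under 0.05 edgeR counted 5 as higher and 2 as lower. Ephx1, the microsomal epoxide hydrolase, rose from 524 ± 86.0 to 800.1 ± 44.5 CPM (log2 fold change 0.61; edgeR adjusted P = 0.0182). Ptges, a prostaglandin E synthase, rose from 1.78 ± 0.737 to 6.89 ± 0.820 CPM (log2 fold change 1.94; edgeR adjusted P = 0.000911).

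Because Cyp4a12 genes are male-biased in mouse liver, other sex-biased genes were counted. Of 19 male-biased genes, 14 had positive log2 fold changes and 2 rose, namely Cyp2d9, a steroid hydroxylase (log2 fold change 0.58; edgeR adjusted P = 0.0265), and C6, a complement component (log2 fold change 0.59; edgeR adjusted P = 0.0306). The list median was 0.38, and DESeq2 counted 5 genes as higher. At an unadjusted P under 0.05, edgeR counted 6 of them as higher and 0 as lower. Of 14 female-biased genes, 1 rose and 0 fell by edgeR, with a median of -0.18. DESeq2 counted 2 of these as higher and 0 as lower, and edgeR counted 2 as higher and 2 as lower at an unadjusted P under 0.05. The gene that rose by edgeR was Prom1, from 0.650 ± 0.534 to 11.1 ± 1.77 CPM, which also marks bile duct cells (log2 fold change 4.003; edgeR adjusted P = 0.000109). Of 11 genes of growth hormone signalling, which sets the sex bias of liver P450 genes, 0 passed the edgeR test (2 positive, 9 negative; 1 higher and 2 lower at an unadjusted P under 0.05), while DESeq2 counted 1 as lower. The most abundant was Igf1, the circulating growth factor (564 and 445 CPM; log2 fold change -0.34; edgeR adjusted P = 0.142, DESeq2 adjusted P = 0.0332). Next came Ghr, the hormone's receptor (531 and 499 CPM), and Igfals, a carrier of Igf1 in plasma (90.3 and 77.8 CPM). In comparison, 15 of 24 CAR and PXR targets rose, with a median log2 fold change of 0.999, among them Cyp2c55 (3.20), Gstm3 (3.24) and Abcc3 (0.46). Aldh1a1 and Por stand in this list as well.

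**Figure D5:**
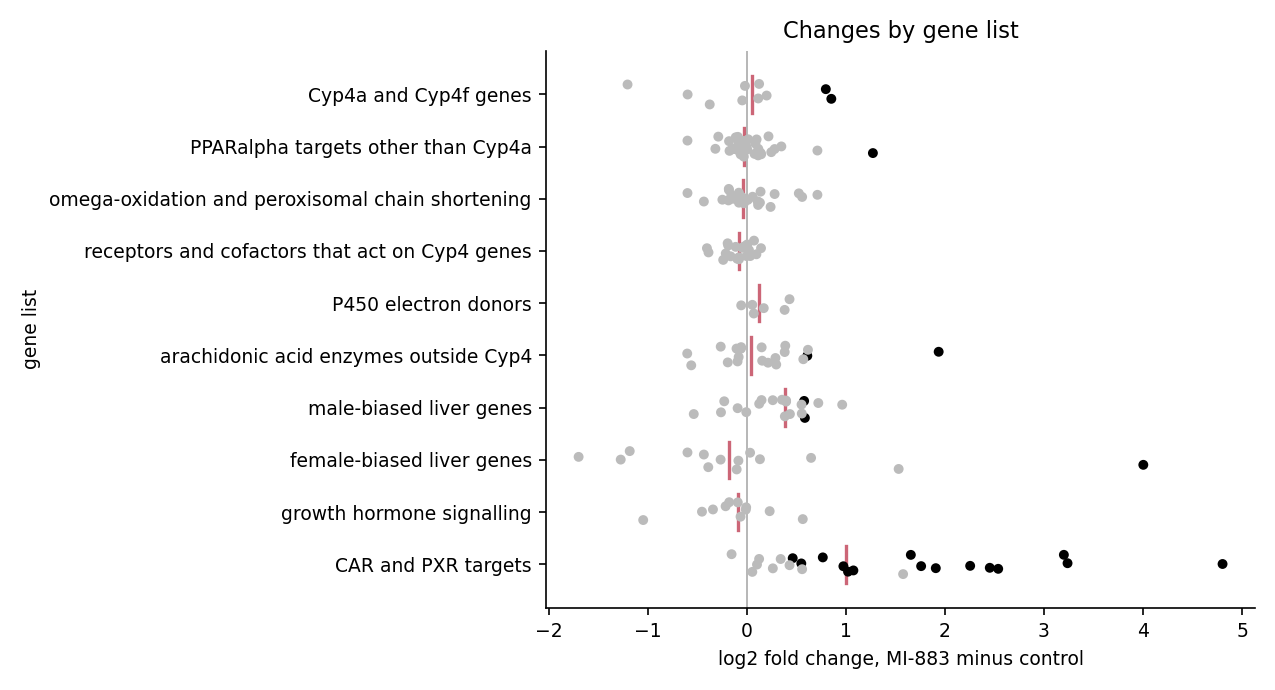
Log2 fold change, MI-883 minus control, of each tested gene in the Cyp4a and Cyp4f set and in 9 lists, with red bars at list medians and black points for edgeR adjusted P under 0.05. CAR and PXR targets lie mostly to the right (median 0.999), while PPARα targets center near 0 (median -0.03) with Pdk4 as the black point.

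Markers of position in the lobule and of other cells were also measured, and their part in the Cyp4 results was not tested. Of 15 periportal genes, 2 fell by edgeR, Hal (log2 fold change -0.46; edgeR adjusted P = 0.0264) and Pigr (log2 fold change -0.52; edgeR adjusted P = 0.0268), and 13 had negative values (median -0.27). DESeq2 called 3 of them lower, and at an unadjusted P under 0.05 edgeR counted 8 as lower and 1 as higher. Of 15 pericentral genes, 11 had positive values (median 0.15) and 1 rose by edgeR, Lect2 (log2 fold change 0.55; edgeR adjusted P = 0.0424). DESeq2 called 2 of them higher, and edgeR counted 5 as higher and 0 as lower at an unadjusted P under 0.05. Of all tested genes, 8.09% were higher and 7.49% lower at that unadjusted P. The 9 hepatocyte markers summed to 78870 to 90080 CPM in control and 67300 to 81600 CPM in treated livers. Their log2 fold changes were negative for 8 and positive for 1, with a median of -0.25. By edgeR or DESeq2, 0 of them passed the test (3 lower in edgeR at an unadjusted P under 0.05). Markers of Kupffer cells and leukocytes (14 genes), stellate cells (10), endothelium (8) and bile duct (6) had 0 calls by edgeR, with medians of 0.04, 0.34, 0.24 and 0.54, respectively. At an unadjusted P under 0.05, edgeR counted 2, 4, 4 and 1 of them as higher, and DESeq2 called 1 endothelial gene higher. The 3 kidney markers that were tested all had positive log2 fold changes, with a median of 3.28. Their edgeR adjusted P values were 0.14 to 0.318, and 3 were higher at an unadjusted P under 0.05. As given above, the counts of the listed kidney markers summed highest in MI-883 livers 2 and 3.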

How the data were processed

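Liver RNA of 5 control and 5 MI-883-treated male mice was sequenced from directional libraries of total RNA. The authors aligned reads to the mouse genome (mm10) with STAR, assigned them to genes with featureCounts and deposited raw counts per Entrez gene. The submitters' processing notes also name fastp 0.23.0. The annotation, the strand setting and the handling of multi-mapping reads are not given in the sources used here, so reads of near-identical genes may have been split or dropped. Of 16647 genes, 16644 were matched to a RefSeq symbol.

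Libraries held 23513665 to 36221514 counts, and the labels gave each liver's condition. Each library came from another animal. Genes with at least 60 counts over the 10 livers were tested in R 4.3.3 with edgeR 4.0.16 (TMM, quasi-likelihood test, condition alone, Benjamini-Hochberg threshold of 0.05), and with the Wald test of DESeq2 1.42.0 as an alternative. The study used DESeq2. CPM values, intervals and exact permutation tests were computed from the deposited counts. In data simulated for this comparison on 13142 genes with 200 changed, edgeR recovered 94% with 4.57% false calls. The planted log2 changes were all larger in size than those of every member except Cyp4a14, whose standard error was large. Genes of very low CPM were left unchanged. The 94% is therefore no measure of how often changes like those of the members would be called. Correlations used log2 CPM. Genes most like a member were ranked by r after removal of group means among 11603 genes (pseudocount 0.01 CPM). Sequences, lengths and shared 100-base stretches came from GENCODE M21 on GRCm38.

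The members and gene lists were chosen with earlier results of these data known. Named were all members, other measured Cyp4 genes, the genes of each list that passed the edgeR test or otherwise its 3 most abundant genes, the 5 genes most like Cyp4a14, Cyp4a12a and Cyp4f14, and Cyp2b10. Cell marker lists without calls are given by counts, and of the CAR and PXR targets only examples. A gene that falls under this rule is not reported here. Alternatives were size factors of DESeq2, total counts, other count filters, DESeq2, a replicate block and leaving out each liver. Leaving out MI-883 livers 2 and 3 was chosen after seeing the data. Same-numbered livers of the groups correlated at -0.121 to 0.36, so replicate numbers were not treated as pairs.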

Additional observations from a re-analysis of the deposited data

Results flagged for a closer look

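In 30 groups of 5 livers, 2 had a liver that lay apart from the other 4 by Dixon's criterion, where chance gives about 1 in 20 groups, or 1.5 of 30. Cyp4a31 was at 7.14 CPM in MI-883 replicate 4, below the nearest other treated liver at 8.92 CPM. Cyp4f15 was at 150 CPM in control replicate 1, below the nearest other control liver at 187 CPM. Neither gene passed the test between groups.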

How the results depend on the processing

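Size factors of DESeq2, total count scaling, other count filters and DESeq2 left Cyp4a12a, Cyp4a12b and their sum higher and past the threshold. With the replicate block, 0 members passed: the log2 fold change was 0.88 for Cyp4a12a (adjusted P = 0.081), 0.80 for Cyp4a12b (adjusted P = 0.062) and 0.86 for their sum (adjusted P = 0.0675). Replicate numbers were not taken as pairs, and the block leaves fewer degrees of freedom. With a liver left out, 1 to 2 members were called higher, log2 fold changes of the sum were 0.71 to 0.93, and 14 to 22 listed genes were called higher and 1 to 6 lower, against 22 and 3 with all livers. DESeq2 called 7 listed genes lower and the replicate block 1. Without MI-883 livers 2 and 3, 1 member was called higher (sum 0.87, adjusted P = 0.119) and 1 listed gene lower. Signs near 0 turned: Cyp4a32 was at 0.00013 and Cyp4f13 at 0.023 under total counts, Cyp4f13 at 0.029 without MI-883 livers 2 and 3, and with a liver left out Cyp4a32 ranged from -0.10 to 0.085 and Cyp4f13 from -0.068 to 0.014. Removing group means raised r to 0.92 for Cyp4f14 with Cyp4f15 and to 0.74 for Cyp4a14 with PPARα targets. The call of Pdk4 was lost without control liver 5, without MI-883 liver 5, without MI-883 livers 2 and 3 and with the replicate block. That of Ephx1 was lost without control liver 3 or 4, without MI-883 liver 5, without MI-883 livers 2 and 3 and with the replicate block, and Ptges was not tested under the filter of 60 counts in every liver. Male-biased genes had 0 calls without control liver 2, 4 or 5 or MI-883 liver 2 or 5. The pericentral and periportal calls were lost in most of the fits without a liver, at 0 each without control liver 2, 3 or 5 or MI-883 liver 2 or 5.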

Other observations

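Among 11603 genes with at least 1 CPM, those whose log2 CPM followed a member most closely over the 10 livers, with group means removed, are given as a description without a test, since all points share livers and depth. For Cyp4a14 they were Sfxn1 (a mitochondrial serine transporter, r = 0.986), Snx10 (0.974), Mapk1ip1 (0.961), Retreg1 (0.960) and Bnip3l (0.950). For Cyp4a12a they were Fgfr1op2 (0.965), Zfp503 (0.922), Sycp3 (0.896), Otc (an enzyme of the urea cycle, 0.893) and Notch3 (0.892). For Cyp4f14 they were Aspdh (0.993), Hagh (0.979), Serpind1 (0.976), Tk1 (0.974) and 1300017J02Rik (0.974). None of these 15 genes passed the edgeR test between the groups.

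Of the fat cell markers, 2 were tested. Cfd fell (log2 fold change -2.25; edgeR adjusted P = 0.00354), whereas Cidec did not pass the test (log2 fold change 0.11; edgeR adjusted P = 0.808). Adipoq and Plin1 had at most 4 and 2 counts in any liver, so a change in fat cells cannot be read from Cfd. The marker of pancreas tested, Cela1, did not pass the test.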
